A study of Mus musculus with 4 samples.

Results

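The genes described here are 9 immediate early genes (Fos, Fosb, Jun, Junb, Egr1, Dusp1, Nr4a1, Atf3 and Rhob) and the cytokine gene Tnf. These 10 genes were chosen by name from the 55253 genes that the 2 gene matrices of the series share by symbol, and all 10 were detected in both. The series profiled CD45+ white blood cells sorted from mouse mammary glands, in 2 pooled droplet libraries made in successive years, called the earlier and the later library here. Cells of each sample carried a hash tag, an antibody linked to a DNA label that tells which sample a droplet came from. In the earlier library the tags name Nulliparous (never pregnant), Gestation and Lactation samples. In the later library they name Gestation, Lactation, Involution (the gland shrinking back after nursing), Regression, Balb/c (an inbred strain) and GF (germ-free, raised without microbes). A further tag, HT2, was named germ-free by the deposited sheets, while the sample titles of the earlier library list an involution sample in its place. It is called the HT2 tag here. The later library's sheet also names a Nulliparous tag, which has 1 count and gave no cells, although that library's title lists such a sample. Because the later library has Involution and GF tags of its own, HT2 may mark different kinds of sample in the libraries. The sources used here do not give the strain of the other samples, the ages, the number of animals behind each tag, or at what reproductive stage Balb/c and GF glands were taken. Each name had 1 sample per library, so p-values below measure the spread between hash-defined samples. Every gland was minced and digested with collagenase at 37 degrees, per the labels' protocols. No undigested gland was analysed here, so expression in the tissue and expression that arose during digestion cannot be told apart.

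Immediate early genes are transcribed soon after a cell receives a signal, before new protein has to be made. Fos and Fosb pair with Jun and Junb to form AP-1, a transcription factor that acts downstream of MAP kinases. Egr1, Nr4a1 and Atf3 encode other transcription factors of the early response: a zinc finger protein, an orphan nuclear receptor induced by antigen receptor signals, and a stress-induced bZIP protein. Dusp1 encodes a phosphatase that switches MAP kinases off, and Rhob a small GTPase whose mRNA is short-lived. Tnf encodes tumour necrosis factor, an inflammatory cytokine made by macrophages and activated lymphocytes. As a group these genes respond to tissue signals and are also known to be induced by warm enzymatic dissociation.

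Levels are given as unique molecular identifiers (UMIs, counted mRNA molecules) of a gene per 10000 UMIs of all genes. The earlier library had 21604 barcodes that passed the cell filters, at a median of 1599 UMIs, and the later library 21177 at a median of 3049. The libraries shared 139 of these barcodes. After tag calling and removal of doublet calls, 15290 and 14610 cells were analysed. A cell was placed in a class when it reached the threshold of exactly 1 gate gene: Cd3e for T cells, Ncr1 for NK cells, Ms4a1 for B cells, Jchain for plasma cells and C1qa for myeloid cells. The earlier library gave 3066 T, 1516 NK, 1143 B, 233 plasma and 997 myeloid cells, and the later library gave 4084, 1491, 2681, 81 and 1186. No gate was reached by 51.0% of the earlier cells and 28.2% of the later cells. Other markers of each class, not used by the gates, were highest in their own class in both libraries. The plasma cell list, for example, summed to 17.7 and 25.2 UMIs per 10000 in plasma cells and to at most 2.5 elsewhere. The T gate also admitted cells with NK genes, whose list summed to 88.0 in earlier T cells against 155.4 in earlier NK cells. Droplets with 10 to 100 UMIs, which hold free RNA, were listed in the earlier library alone. They held 2.67 UMIs of Fos, 1.99 of Jun, 1.35 of Egr1 and 0.191 of Tnf per 10000. With milk casein UMIs as a tracer, free RNA was estimated at 4.03% of the UMIs of T cells, 6.85% of B cells and 5.29% of myeloid cells. It would account for 1.8% of the Fos level of myeloid cells and 7.4% of that of T cells. The largest such shares were those of Atf3, at 24.3% of its B cell level and 22.7% of its T cell level.

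Myeloid cells, gated on the macrophage complement gene C1qa, carried the highest summed level of the 9 immediate early genes per 10000 UMIs of all genes in both libraries. The sum was 34.2 UMIs per 10000 in earlier myeloid cells against 10.3 in T cells, 10.9 in NK cells, 13.3 in plasma cells and 20.4 in B cells. Later myeloid cells held 52.5 against 21.4, 24.1, 34.4 and 23.0 in the same order. These levels pool the cells of all samples of a library, so large samples weigh most. By sample, the later median was 28.2 in B and 21.9 in NK cells, and B exceeded NK cells in 9 of 11 samples of both libraries. Myeloid exceeded B cells in 10 of 11 samples, and not in later HT2, at 45.6 against 49.4. Per 10000 UMIs of genes other than immunoglobulins, plasma cells stood at 27.7 and 83.2 against 34.3 and 52.6 in myeloid cells, earlier and later, so the later order turned. Of the 10 genes, 9 were higher in myeloid than in T cells and none was lower by edgeR's quasi-likelihood test, with the hash-defined sample as a block. Of all 10425 genes tested, 63.3% passed this comparison in either direction and 32.8% were higher. The median log2 difference was 1.78 for the 10 genes and -0.01 for all genes.

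Fos was at 8.66, 11.9, 5.85 and 8.42 UMIs per 10000 in the earlier Gestation, HT2, Lactation and Nulliparous myeloid cells. Over the 7 later myeloid samples it ranged from 7.45 to 14.0, with a median of 9.12. In T cells the earlier samples were at 2.11, 2.61, 1.06 and 1.28 in the same order, and the later ones ranged from 2.34 to 5.84 with a median of 2.57. Every myeloid sample lay above every T cell sample, narrowly so at the closest, where earlier Lactation myeloid cells at 5.85 stood next to later HT2 T cells at 5.84. The log2 difference was 2.15 ± 0.17 (SE), with an edgeR adjusted p of 5.5e-15, and Fos was higher in myeloid cells in 11 of 11 samples.

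Jun, the AP-1 partner of Fos, was at 10.2, 6.91, 6.37 and 4.53 UMIs per 10000 in earlier Gestation, HT2, Lactation and Nulliparous myeloid cells. The 7 later myeloid samples lay between 5.72 and 9.53, with a median of 7.89. T cells held 1.37 to 2.72 UMIs of Jun over all 11 samples, so the ranges did not overlap. Its log2 difference was 2.20 ± 0.14. Fosb was less separated, with 1.74 to 4.87 in myeloid cells against 0.71 to 3.78 in T cells, higher in 9 of 11 samples and by 1.21 ± 0.24 on the log2 scale (adjusted p 1.9e-05, edgeR).

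Junb behaved differently from its AP-1 partners. It was at 2.94, 4.52, 2.15 and 3.28 UMIs per 10000 in the earlier Gestation, HT2, Lactation and Nulliparous myeloid cells, and at 3.76, 3.92, 2.28 and 3.46 in the T cells of those samples. Its later medians were 8.68 in myeloid and 9.94 in T cells. Junb was lower in myeloid than in T cells in 7 of 11 samples and higher in 4, and the log2 difference of 0.07 ± 0.16 did not pass (adjusted p 0.71, edgeR).

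Atf3 had the largest log2 difference of the 10 genes between myeloid and T cells. Earlier myeloid cells held 3.76, 4.27, 2.02 and 3.41 UMIs of Atf3 per 10000 in Gestation, HT2, Lactation and Nulliparous, and later ones held 2.19 to 5.46 with a median of 4.34. T cells held 0.04 to 0.48 and B cells 0.08 to 0.52 over 11 samples each, and neither range reached that of myeloid cells. The log2 difference was 4.67 ± 0.27 against T cells and 3.99 ± 0.30 against B cells (adjusted p 3.1e-20 and 7.1e-16, edgeR). Among cells thinned to 500 UMIs each, Atf3 was detected in 13.8% of earlier and 13.0% of later myeloid cells, and in at most 0.71% of T, NK or B cells of either library. Without thinning the myeloid shares were 32.3% and 43.3%.

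Egr1, Rhob and Dusp1 were also higher in myeloid than in T cells. Egr1 was at 5.71, 7.16, 2.93 and 2.71 UMIs per 10000 in earlier Gestation, HT2, Lactation and Nulliparous myeloid cells and at 5.65 to 8.82 in later ones (median 7.0). T cells held 0.59 to 2.92, which overlaps the lowest myeloid samples. The log2 difference of 2.54 ± 0.17 was positive in 11 of 11 samples (adjusted p 1.7e-17, edgeR). Rhob was at 1.23, 0.71, 1.05 and 0.68 in the earlier myeloid samples, at 2.16 to 2.92 in the later ones, and at 0.11 to 0.61 in T cells. Its log2 difference was 3.0 ± 0.15, and its ranges did not overlap. Dusp1, the MAP kinase phosphatase gene, was higher in 11 of 11 samples, by 1.40 ± 0.17 on the log2 scale, with 2.61 to 8.55 in myeloid and 1.03 to 4.69 in T cells.

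The remaining calls were small. Nr4a1 was 0.40 ± 0.18 higher on the log2 scale in myeloid than in T cells (adjusted p 0.048, edgeR), in 7 of 11 samples. Tnf was 0.40 ± 0.17 higher (adjusted p 0.032, edgeR), in 6 of 11 samples. These differences in the later library alone were 0.12 and 0.19 and neither passed, and without TMM factors, the scaling that edgeR applies between sums, both were 0.20 and neither passed. On sums without immunoglobulin genes they were 0.34 and 0.35 and neither passed. With Scrublet calls kept, Nr4a1 was at 0.37 and did not pass (adjusted p 0.051, edgeR). Without those factors 67.7% of all genes passed between myeloid and T cells, 7061 in number, of which 2790 were higher, against 6596 and 3423 with them, and the median of all genes moved to -0.20. Against B cells, 8 of the 10 genes were higher in myeloid cells and Nr4a1 was lower, by 0.70 ± 0.19. Of all genes, 61.0% passed that comparison.

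**Figure D1:**
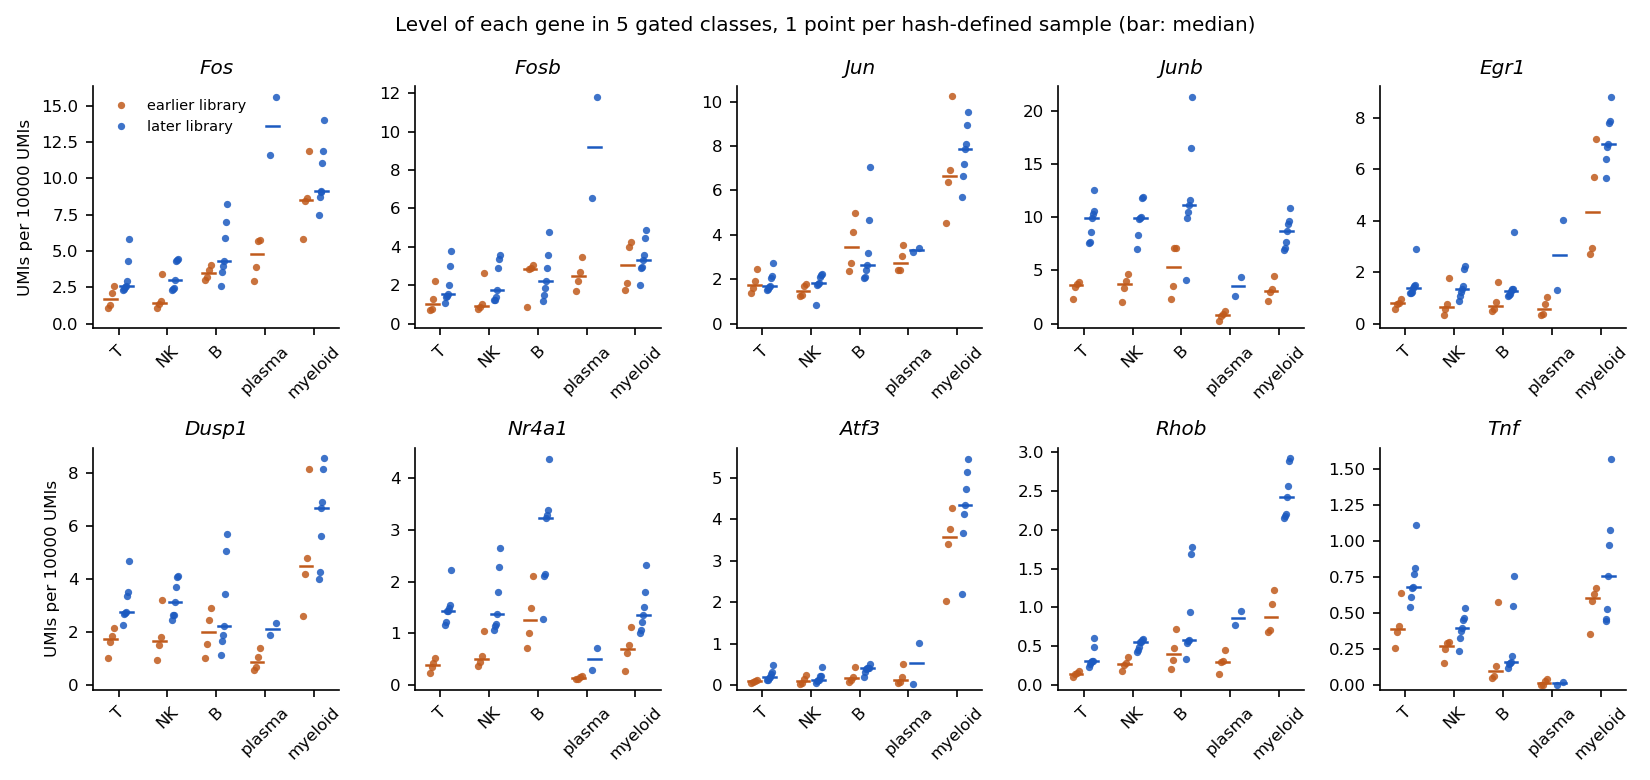
Level of each gene in UMIs per 10000 UMIs (y axis, linear and scaled separately for each gene) in the 5 gated classes (x axis). Each point is 1 hash-defined sample, orange for the earlier and blue for the later library, and each bar is the median of its samples; Atf3 in myeloid cells lies at 2.02 to 5.46, apart from every T, NK and B cell sample.

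**Figure D2:**
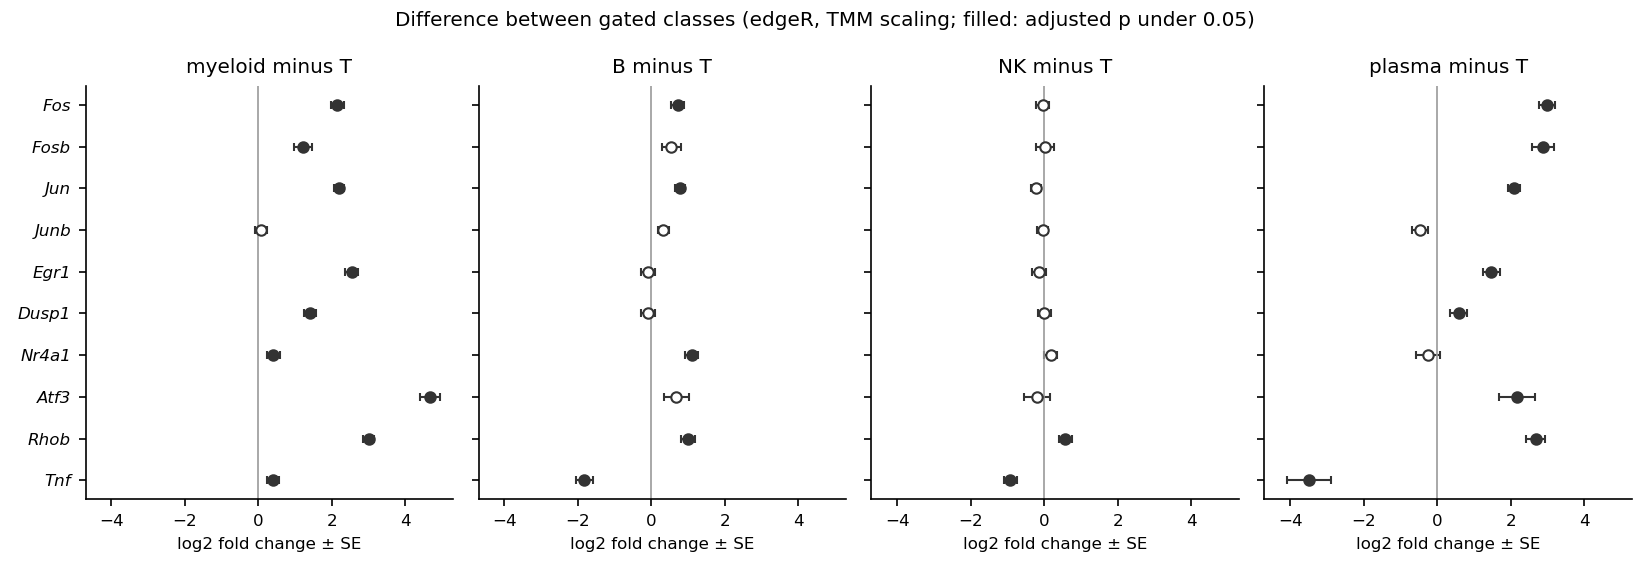
Log2 fold change of each gene between myeloid, B, NK or plasma cells and T cells (x axis) from the edgeR fit over 50 class by sample sums, with bars of ± 1 SE. Filled points passed an adjusted p of 0.05; 9 of 10 genes passed for myeloid cells and 2 of 10 for NK cells, and the plasma panel depends on the scaling, as the text gives.

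The stretches before the start sites of the members were read, since most of them were higher together in myeloid cells, from the RefSeq promoter table, on GRCm38.p6. That table held 9 of the 10 genes, all but Egr1. The 250 bases before the start were searched on both strands for 4 motifs. The cAMP response element TGACGTCA was in 1 of the 9 windows, that of Dusp1, 143 bases before the start, and in 1.55% of all 32851 windows. The AP-1 site TGANTCA was in 0 of 9 windows against 6.75% of all, and the CArG box bound by SRF in 0 of 9 against 1.47%. The kappa B site was in 2 of 9, those of Fos and Fosb, against 7.25% of all. After these windows were seen, the half-site TGACG was searched as well. It includes every TGACGTCA and was in 6 of 9 windows (Fos, Fosb, Junb, Dusp1, Nr4a1 and Atf3) against 17.8% of all windows. Junb, 1 of these 6, was not called higher in myeloid cells, while Jun, Rhob and Tnf, which were, had none. A match is a description of the letters and not of a bound site. Sites farther upstream, or that depart from these motifs, were not searched. The window of Junb, which holds a half-site 106 bases before the start, is not shown. The other windows with these matches are shown, those of Fos (chr12:85473640-85473889, plus strand), Fosb (chr7:19310046-19310295, minus strand), Dusp1 (chr17:26508473-26508722, minus strand), Atf3 (chr1:191183334-191183583, minus strand) and Nr4a1 (chr15:101266596-101266845, plus strand). They are written 5′ to 3′ along the gene, with capitals marking matches on either strand.
Fos: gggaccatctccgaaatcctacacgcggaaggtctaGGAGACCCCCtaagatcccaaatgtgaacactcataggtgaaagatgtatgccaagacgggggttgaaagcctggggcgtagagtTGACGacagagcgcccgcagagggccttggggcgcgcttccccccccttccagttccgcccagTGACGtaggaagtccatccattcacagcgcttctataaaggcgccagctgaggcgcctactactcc
Fosb: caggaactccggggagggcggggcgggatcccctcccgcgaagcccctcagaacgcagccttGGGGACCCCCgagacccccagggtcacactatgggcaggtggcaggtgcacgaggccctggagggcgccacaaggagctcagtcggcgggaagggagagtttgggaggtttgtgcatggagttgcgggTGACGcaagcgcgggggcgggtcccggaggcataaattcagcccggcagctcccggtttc
Dusp1: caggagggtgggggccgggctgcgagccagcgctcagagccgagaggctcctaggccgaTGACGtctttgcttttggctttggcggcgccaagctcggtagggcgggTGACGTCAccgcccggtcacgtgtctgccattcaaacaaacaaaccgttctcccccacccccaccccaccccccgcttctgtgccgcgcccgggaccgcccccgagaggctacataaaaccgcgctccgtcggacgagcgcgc
Atf3: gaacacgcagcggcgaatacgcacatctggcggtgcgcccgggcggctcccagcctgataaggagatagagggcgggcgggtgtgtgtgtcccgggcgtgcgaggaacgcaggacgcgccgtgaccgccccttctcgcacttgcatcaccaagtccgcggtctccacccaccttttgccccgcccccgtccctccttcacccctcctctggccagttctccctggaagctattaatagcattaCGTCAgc
Nr4a1: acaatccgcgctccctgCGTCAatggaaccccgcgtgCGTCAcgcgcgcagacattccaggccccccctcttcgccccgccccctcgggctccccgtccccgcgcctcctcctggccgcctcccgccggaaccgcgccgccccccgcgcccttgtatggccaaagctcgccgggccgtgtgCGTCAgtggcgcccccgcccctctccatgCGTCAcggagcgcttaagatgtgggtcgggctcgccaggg
The windows of Fos and Fosb each hold a kappa B match upstream of a half-site, at 214 and 188 bases before the start, and the half-site nearest the start lies at 66 bases in Fos and 60 in Fosb. Nr4a1 holds 4 half-sites and Atf3 has one that begins 7 bases before the start.

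B cells differed from T cells in Nr4a1, Rhob, Jun, Fos and Tnf. Of the 10 genes, 4 were higher and 1 was lower, where 43.6% of all genes passed in either direction. Nr4a1, which antigen receptor signals induce, was at 0.72, 1.5, 1.01 and 2.11 UMIs per 10000 in earlier Gestation, HT2, Lactation and Nulliparous B cells. Those samples held 0.43, 0.52, 0.24 and 0.35 in T cells. Later B cell samples ranged from 1.28 to 4.38 (median 3.23) and later T cell samples from 1.15 to 2.23 (median 1.43). The log2 difference was 1.10 ± 0.18, and Nr4a1 was higher in B cells in 10 of 11 samples (adjusted p 1.9e-06, edgeR). In order of its median, Nr4a1 was highest in B cells in both libraries and lowest in plasma cells, and T, NK and myeloid cells lay between with overlapping ranges.

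Jun was 0.78 ± 0.14 higher on the log2 scale in B than in T cells, in 10 of 11 samples. Fos was 0.71 ± 0.18 higher and Rhob 0.99 ± 0.19 higher, each in 11 of 11. The B cell range of each still overlapped that of T cells. Fosb (0.54 ± 0.25), Junb (0.33 ± 0.16), Atf3 (0.68 ± 0.34), Egr1 (-0.08 ± 0.19) and Dusp1 (-0.09 ± 0.18) did not pass. With Scrublet's doublet calls kept, or with no filter on low counts, Fosb, Junb and Atf3 passed as well and the count of members called rose from 5 to 8.

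Between NK and T cells 2 of the 10 genes passed, a share near the 18% of all genes. The T gate also admitted cells with NK genes, and their part in these differences was not tested. Rhob was 0.57 ± 0.18 higher in NK cells (adjusted p 0.017, edgeR), in 10 of 11 samples. Tnf was lower by 0.92 ± 0.18 on the log2 scale, in 11 of 11 samples (adjusted p 0.00015). The other 8 genes had log2 differences from -0.22 (Jun) to 0.18 (Nr4a1), with SEs from 0.14 (Jun) to 0.36 (Atf3). In the earlier library alone neither Rhob (0.81) nor Tnf (-0.72) passed. Tnf passed in the later library alone (-1.02) and Rhob (0.46) did not.

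Per 10000 UMIs of all genes, plasma cells carried much Fos and Fosb and little Junb, Nr4a1 and Tnf. Fos was at 5.66, 5.77, 2.91 and 3.88 UMIs per 10000 in the earlier Gestation, HT2, Lactation and Nulliparous plasma cells, and at 11.6 and 15.6 in the later Involution and Regression plasma cells. All 6 values exceeded those of the T cells of the same samples, which were at most 2.61. Fosb was at 3.49, 2.70, 1.70 and 2.23 in the earlier samples and at 6.54 and 11.8 in the later ones, above T cells in 6 of 6. Junb was lower than in T cells in 6 of 6 samples, with 0.22 to 4.39 against 2.28 to 8.58. Immunoglobulin genes took 51.9% of the UMIs of earlier plasma cells and 58.7% of those of later ones, which lowers every other gene's level per 10000. TMM factors for plasma sums had a median of 0.41, against 1.06 to 1.22 for the other classes. After that scaling 7 of 10 genes were higher than in T cells and Tnf was lower, where 39.1% of all genes passed. Junb (-0.46 ± 0.21) and Nr4a1 (-0.24 ± 0.32) did not pass. Per 10000 UMIs of genes other than immunoglobulins, Junb was at 1.63 and 7.88 in earlier and later plasma cells, against 3.27 and 8.91 in T cells. Fos differed by 2.99 ± 0.21 on the log2 scale (adjusted p 1.8e-16, edgeR), Fosb by 2.87 ± 0.30 and Rhob by 2.68 ± 0.25.

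The plasma calls that depended on the scaling were those of Dusp1, Egr1, Atf3, Junb and Nr4a1. Without TMM factors 4 genes were higher than in T cells (Fos 1.59, Fosb 1.48, Rhob 1.28 and Jun 0.71) and 4 were lower (Tnf -4.78, Junb -1.86, Nr4a1 -1.65 and Dusp1 -0.80). Of all genes, 81.7% then passed, with a median of -1.52. Dusp1 thus was called higher, by 0.59 ± 0.23, with the factors and lower without them. Per 10000 UMIs of genes other than immunoglobulins, Dusp1 stood at 1.94 and 4.58 in earlier and later plasma cells against 1.57 and 2.82 in T cells, but the edgeR difference on sums without immunoglobulin genes, 0.51, did not pass (adjusted p 0.071), nor did that against B cells, 0.57 (adjusted p 0.055). Against B cells, 7 of 10 genes were higher in plasma cells and 2 were lower, Junb by 0.79 ± 0.22 and Nr4a1 by 1.34 ± 0.32, where 38.6% of all genes passed. With every gate gene set at 1 or more UMIs the signs of Junb and Nr4a1 turned in both comparisons, and without TMM factors those of Jun and Dusp1 turned against B cells. Without those factors 2 genes were higher than in B cells (Fos 0.85 and Fosb 0.92) and 4 were lower (Junb, Nr4a1, Dusp1 and Tnf), where 75.6% of all genes passed. With TMM factors Fos and Fosb were lower in myeloid than in plasma cells, by 0.84 ± 0.20 and 1.66 ± 0.29 on the log2 scale. Another 5 of the 10 genes were higher, Tnf by 3.88, Atf3 by 2.49, Egr1 by 1.07, Dusp1 by 0.81 and Junb by 0.54. Of all genes, 44.3% passed that comparison. Per 10000 UMIs of all genes, Fos was higher in myeloid than in plasma cells in 5 of 6 samples and Fosb in 3 of 6. Jchain was at 45.4 UMIs per 10000 in near-empty droplets, a background that a gate of 1 Jchain UMI does not separate from plasma cells; its part was not tested.

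Tnf followed an order of its own. In earlier cells its level was 0.54 UMIs per 10000 in myeloid, 0.35 in T, 0.25 in NK and 0.09 in B cells. In later cells it was 0.70 in T, 0.69 in myeloid, 0.39 in NK and 0.17 in B cells. Myeloid and T cell samples overlapped, at 0.35 to 1.57 and 0.26 to 1.11. Plasma cells gave 3 UMIs of Tnf among 233 earlier cells and 1 among 81 later cells, and 3 of the 6 plasma samples had none. B cells were 1.82 ± 0.23 below T cells on the log2 scale (adjusted p 2.9e-09, edgeR), lower in 9 of 11 samples. The exceptions were the earlier Lactation sample (0.58 in B against 0.41 in T cells, from 4 UMIs in 46 B cells) and the later Balb/c sample (0.76 against 0.61). Free RNA would account for 13.6% of the B cell level and 2.2% of the T cell level. In cells thinned to 500 UMIs, Tnf was detected in 1.66% and 3.55% of T cells, 2.51% and 3.88% of myeloid cells, and 0.44% and 0.71% of B cells, earlier and later. Without thinning these shares were 5.19% and 14.4%, 9.93% and 20.2%, and 0.79% and 2.76%, at median depths of 1514 and 3055, 2102 and 4352, and 885 and 2038 UMIs.

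Other genes of the TNF pathway, from a list of 19 that holds receptors, adaptors, NF-kappa B subunits and targets, differed between classes in both directions. Of these, 11 were higher and 6 lower in myeloid than in T cells, where 63.3% of all genes passed. The receptor gene Tnfrsf1a was 1.60 ± 0.15 higher in myeloid cells, Adam17, which sheds TNF from the cell surface, 1.59 ± 0.11 higher, and Nfkbiz, an NF-kappa B cofactor, 1.55 ± 0.13 higher on the log2 scale. The cytokine genes Cxcl2 and Il1b were higher by 4.84 ± 0.38 and 4.21 ± 0.36, and Ltb (lymphotoxin beta) was lower by 3.93 ± 0.21. B cells had 5 genes higher and 8 lower than T cells, where 43.6% of all genes passed. Among them Tnfrsf1a and Tnfrsf1b, the TNF receptor genes, were lower by 1.75 ± 0.22 and 1.53 ± 0.15, while Lta was higher by 1.49 ± 0.27 and Birc3, an inhibitor of apoptosis, by 2.01 ± 0.13. NK cells had 4 higher and 2 lower than T cells (18% of all genes passed), with Ccl3 and Ccl4 higher by 2.80 ± 0.29 and 2.54 ± 0.34. Plasma cells, with TMM factors, had 3 higher than T cells, among them Nfkbia, the NF-kappa B inhibitor (1.52 ± 0.15), and 4 lower, a share near the 39.1% of all genes.

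A list of 26 further immediate early and feedback genes, of which 25 were tested, also differed in both directions. Between myeloid and T cells, where 63.3% of all genes passed, 11 were higher and 8 lower, with a median of 0.25 on the log2 scale. The mRNA decay gene Zfp36 was 2.22 ± 0.13 higher, the phosphatase gene Dusp6 2.19 ± 0.15 higher and Ier3 3.33 ± 0.25 higher, while Cd69, an early activation receptor of lymphocytes, was lower by 2.92 ± 0.22. B cells had 14 higher and 5 lower than T cells, with a median of 0.64, where 43.6% of all genes passed. Egr3 was 3.25 ± 0.17 higher in B cells, Myc 1.70 ± 0.16 higher and Zfp36 1.66 ± 0.13 higher, and Fosl2, another AP-1 subunit, was lower by 2.42 ± 0.18. NK cells had 5 higher, among them Fosl2 (0.59 ± 0.13), and 4 lower, among them Cd69 (-0.84 ± 0.18), than T cells, where 18% of all genes passed. Plasma cells, with TMM factors, had 9 higher and 7 lower than T cells (39.1% of all genes passed), with Jund 1.88 ± 0.14 higher and Btg1 lower by 2.19 ± 0.17.

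Heat shock genes were listed beside these because warm handling can move both. Their summed level was 29.4, 29.9, 32.9, 9.38 and 35.1 UMIs per 10000 in earlier T, NK, B, plasma and myeloid cells, and 35.2, 32.3, 38.8, 9.30 and 38.3 in later ones. Of the 10 heat shock genes 5 were higher and 2 lower in myeloid than in T cells, a share near the 63.3% of all genes. Hspa1a, the inducible HSP70 gene, was higher by 2.03 ± 0.19 and Hspa1b by 1.04 ± 0.17, while Dnaja1, a co-chaperone gene, was lower by 0.66 ± 0.09. In NK cells Hspa1a was lower than in T cells by 1.06 ± 0.21 and Hspa1b by 0.79 ± 0.18. The part of a stress response in the immediate early levels was not tested.

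How often cells held 2 of these genes was set beside what their separate frequencies would give. Each cell was thinned to 500 UMIs, and pairs of genes with at least 5 cells expected to hold both were compared. In myeloid cells 32 of 32 such pairs in the earlier library and 44 of 44 in the later library were found together more often than the product of their shares, by a median of 1.71 and 1.55 times. In T cells this held for 16 of 16 and 33 of 34 pairs, with medians of 1.74 and 1.74. In NK cells it held for 9 of 10 and 22 of 25 pairs, with Fos and Rhob at 0.57 in the later library, and in B cells for 15 of 16 and 25 of 26, with Junb and Tnf at 0.58. Fos and Dusp1 were found together in 37 earlier T cells where 14.0 were expected, and in 104 later ones where 53.1 were expected. Fos and Jun were closer to expectation in T cells, with 26 against 16.0 and 41 against 33.4. In later T cells Egr1 and Tnf were together in 22 cells where 6.78 were expected. These cells come from several samples whose levels differ, which by itself raises such ratios. Pairs of other genes were not counted, so whether such ratios are particular to these 10 genes was not tested.

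The 9-gene UMIs were unevenly held by cells. In thinned earlier T cells, 64.9% had none and the top 10% of cells held 51.7% of the UMIs. In thinned later T cells these figures were 48.4% and 46.3%. Myeloid cells had 38.5% and 27.1% of cells without any and 41.1% and 37.1% of the UMIs in the top 10%. Their mean was 1.74 and 2.72 UMIs per thinned cell, against 0.56 and 1.12 in T cells. Both shares fall as that mean rises, so they do not show which class was more even. Among later cells, 32.1% of thinned myeloid cells had 3 or more of the 9 genes, against 6.59% of T cells, 8.92% of NK cells and 7.12% of B cells.

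Between hash-defined samples the 9-gene sum differed by 1.44 to 3.43 times within a class and library where more than 2 samples were present. In the earlier library Lactation was lowest in all 5 classes. The HT2 tag was highest in T, NK, B and myeloid cells and level with Gestation in plasma cells. In T cells the sum was 14.6 UMIs per 10000 (95% Poisson interval in the plot by sample) for HT2, 12.9 for Gestation, 9.81 for Nulliparous and 7.69 for Lactation. In NK cells it was 19.0, 10.7, 10.8 and 7.17, in B cells 25.1, 18.3, 21.3 and 12.7, in plasma cells 16.1, 16.1, 10.6 and 8.70, and in myeloid cells 49.0, 41.5, 30.6 and 25.0, in the same order. HT2 exceeded Lactation by 1.90 times in T, 2.65 in NK, 1.98 in B and 1.96 in myeloid cells. These intervals cover counting error only, and no test was fitted to the order of these samples. Of the 9 genes, Lactation was the lowest sample for 7 in T cells, 7 in NK cells and 6 in myeloid cells, and HT2 was the highest for 7 in each. In B cells Lactation was lowest for 4 and highest for 2, and HT2 was highest for 5.

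Depth and cell makeup also differed between these samples, in part along that order. Earlier Lactation T cells had a median of 2008 UMIs, against 1606 in Nulliparous, 1315 in HT2 and 1274 in Gestation T cells. Earlier Lactation NK cells had a median of 2205 UMIs against 1211 in HT2. In plasma cells HT2 had the highest depth, 7232, and shared the highest sum with Gestation. The 6 NK marker genes summed to 213.4 UMIs per 10000 in earlier Lactation T cells, 71.9 in Gestation, 39.5 in Nulliparous and 17.3 in HT2. The 6 myeloid markers, those of the class with the highest levels of these genes, summed to 22.1 in Lactation T cells, 15.5 in Gestation, 10.9 in Nulliparous and 8.33 in HT2. The heat shock list was lowest in Lactation T cells as well, at 24.1 against 30.8 to 33.7, but not in myeloid cells, where it was 33.3 in Lactation and 31.2 in HT2. Without immunoglobulin, mitochondrial and CT010467.1 UMIs (an entry that took 19.7% of earlier and 6.25% of later T cell UMIs), the T cell order was the same: 19.3 in HT2, 17.4 in Gestation, 12.8 in Nulliparous and 9.99 in Lactation. The part of depth and of cell makeup in these differences was not tested.

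**Figure D3:**
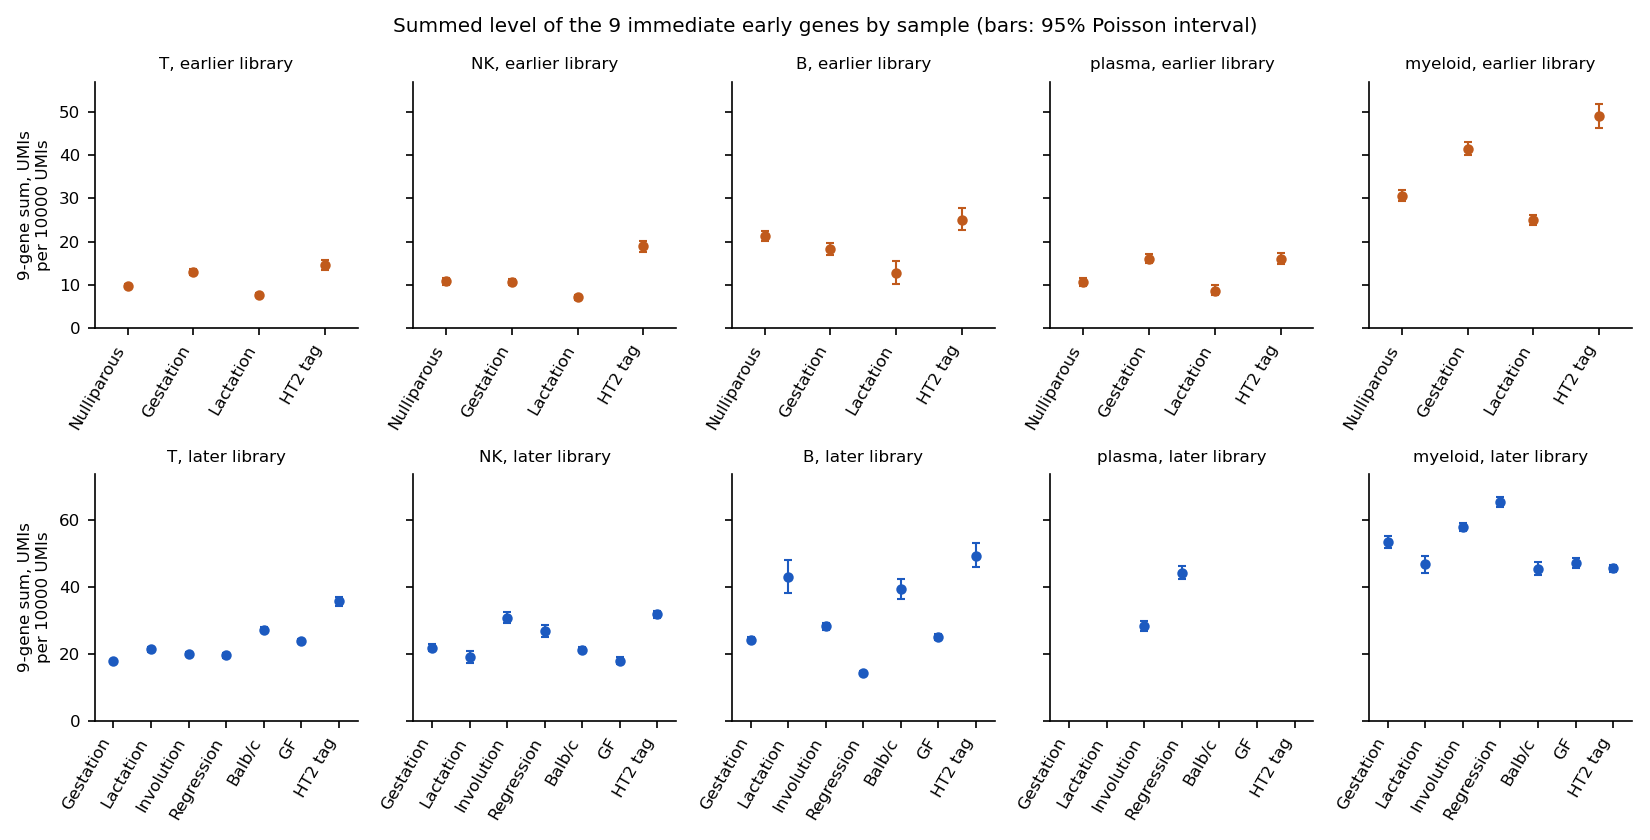
Summed level of the 9 immediate early genes in UMIs per 10000 UMIs (y axis, shared within a library) for each hash-defined sample (x axis) by class, earlier library above and later library below. Bars are 95% Poisson intervals of the counts; Lactation is the lowest sample in each earlier panel, at 7.17 to 25.0.

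Among later samples the order differed between classes. HT2 was highest in T cells (35.7 against 17.7 in Gestation, the lowest), in NK cells (31.8 against 18.03 in GF) and in B cells (49.4 against 14.4 in Regression). In myeloid cells Regression was highest at 65.4, followed by Involution at 57.9, and Balb/c was lowest at 45.5 with HT2 at 45.6. In T cells HT2 was the highest sample for 8 of the 9 genes. Its Fos level there was 5.84 and its Egr1 level 2.92 UMIs per 10000, against at most 4.34 and 1.5 in the other 6 samples. In B cells Regression was the lowest sample for 7 of the 9 genes, with Junb at 4.10 against 9.91 to 21.3 elsewhere. Epithelial and milk genes summed to 116.2 UMIs per 10000 in later Regression B cells and 237.3 in Balb/c B cells, against 7.8 to 9.9 in the other later B cell samples. In later GF myeloid cells they summed to 309.4. The part of these genes in the B and myeloid cell orders was not tested. Neither strain nor germ-free housing was replicated, so Balb/c and GF are given as values: their T cell sums were 27.3 and 23.8, between the 21.3 of Lactation and the 35.7 of HT2. The 6 myeloid markers had the same order as the 9-gene sum in later T cells, at 21.1 UMIs per 10000 in HT2, 15.1 in Balb/c, 12.6 in GF, 9.07 in Lactation, 6.79 in Involution, 5.78 in Regression and 5.31 in Gestation. Median depth in those T cells was 2781.5 UMIs in HT2, 2654 in Balb/c, 2978 in GF and 2836.5 in Lactation. It was 3345 in Involution, 3106.5 in Regression and 3190 in Gestation. The part of these markers and of depth in the T cell order was not tested.

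Gestation and Lactation each had a sample in both libraries, which allows a test of these stages within each class. None of the 10 genes passed in T, NK, B or myeloid cells by edgeR's quasi-likelihood test with the year as a block and 1 residual degree of freedom. Of all genes, 0.0445% passed in T cells (4 of 8990), 0.299% in NK cells, 0.0315% in B cells and 0.0574% in myeloid cells. At an unadjusted p under 0.05 there were 348 genes in T, 405 in NK, 159 in B and 355 in myeloid cells, and DESeq2 called none of the 10 genes either. Changes of the size of log2 1 were recovered for 15.7% of genes in a simulation of the T cell comparison, and changes of log2 2 for 84.1%, so moderate changes could be missed. That simulation gave every gene the same spread and no difference between the libraries, so the shares may differ in these data.

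In myeloid cells all 10 point estimates were below 0, where the median of all genes was -0.01. They come from the same 4 samples, and Rhob at -0.04 ± 0.29 and Tnf at -0.24 ± 0.35 lay within 1 SE of 0. Dusp1 was at 4.17 UMIs per 10000 in Gestation and 2.61 in Lactation in the earlier library, and at 6.88 and 4.26 in the later one, a log2 difference of -0.71 ± 0.27 (unadjusted p 0.021, adjusted p 0.79, edgeR). Fos was at 8.66 and 5.85, then 11.1 and 7.45, a difference of -0.59 ± 0.25 (adjusted p 0.87). Fosb was at 3.99 and 1.74, then 3.60 and 2.89, a difference of -0.79 ± 0.30 (adjusted p 0.79). These 3 genes, and also Junb and Nr4a1, were lower in Lactation in both libraries, while Jun, Egr1, Atf3, Rhob and Tnf were lower in the earlier library and higher in the later one.

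In T cells the libraries disagreed for several genes. On the log2 scale the earlier and later differences were -0.94 and 0.02 for Fos, -0.79 and 0.44 for Fosb, and -0.67 and 0.32 for Junb. The joint estimate for Fos was -0.44 ± 0.27 (adjusted p 1.0, edgeR). Tnf was higher in Lactation than in Gestation T cells both times, at 0.413 against 0.365 and at 1.11 against 0.67 UMIs per 10000, a joint difference of 0.48 ± 0.25 that did not pass (adjusted p 1.0). In NK cells Junb was at 2.05 in Lactation against 3.33 in Gestation in the earlier library and at 6.99 against 9.85 in the later one, a difference of -0.58 ± 0.23 (unadjusted p 0.015, adjusted p 0.68).

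In B cells Tnf had the largest estimate, 2.19 ± 0.58 (unadjusted p 0.0034, adjusted p 0.59, edgeR). It rested on 4 UMIs in 46 earlier Lactation B cells and 4 in 28 later ones, against 2 in 350 and 22 in 615 Gestation B cells. The myeloid marker list summed to 27.1 UMIs per 10000 in the earlier Lactation B cells, against 3.2 in Gestation. Later Lactation and Gestation B cells held 2.6 and 3.8. Rhob differed by 1.48 ± 0.46 (adjusted p 0.67), from 5 and 13 UMIs in Lactation B cells. Atf3 had too few counts to be tested in NK and B cells.

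**Figure D4:**
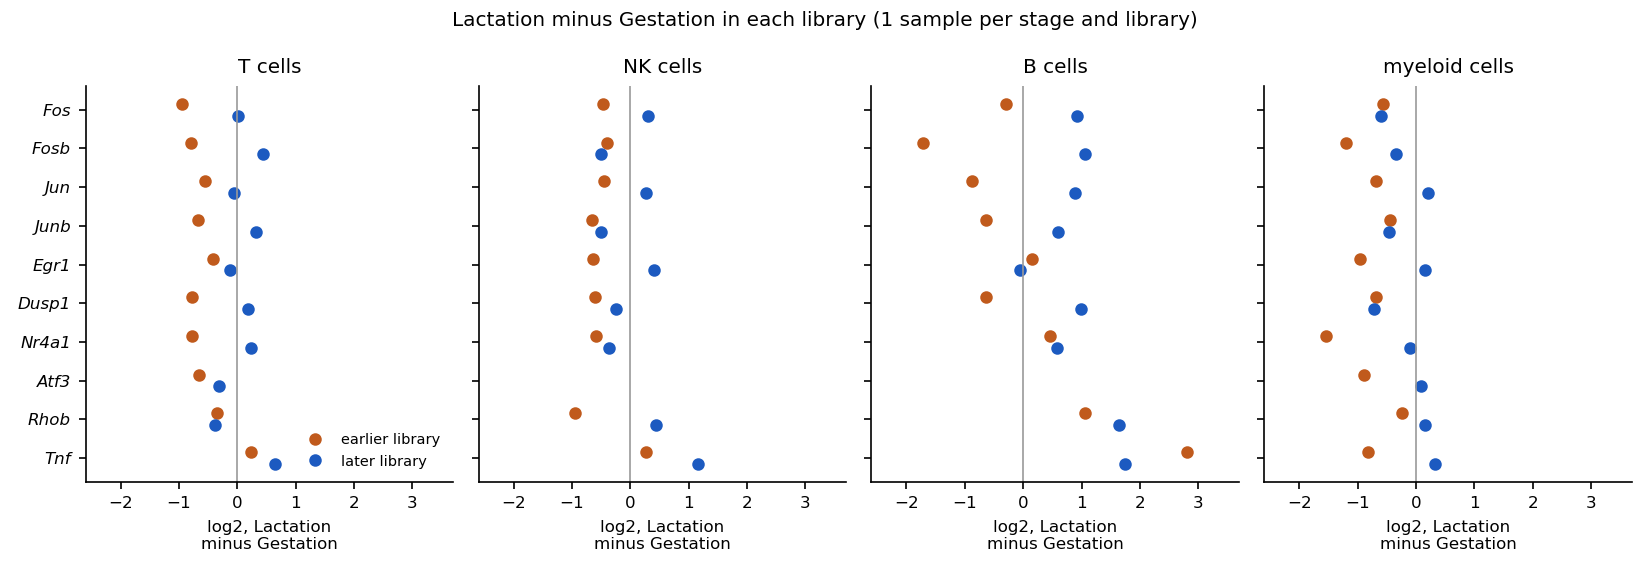
Log2 difference of each gene between the Lactation and the Gestation sample (x axis) within T, NK, B and myeloid cells, orange for the earlier and blue for the later library, 1 sample per stage and library and so without error bars. In myeloid cells Fos, Fosb, Junb, Dusp1 and Nr4a1 lie below 0 in both libraries, while in T cells Fos is at -0.94 and 0.02; Atf3 was not tested in NK and B cells.

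Levels also differed between the libraries for samples of the same name. Over 12 pairs of class and name (Gestation, Lactation and HT2 in T, NK, B and myeloid cells), Junb was higher in the later library in 12, by a median of 3.09 times. The HT2 pairs, 4 of the 12, may not be the same kind of sample in both libraries. Nr4a1 and Rhob were higher in 12 of 12 as well, by medians of 2.93 and 2.06 times, and Dusp1 in 11 of 12 by 1.69 times. Fos and Egr1 were higher in 10 of 12, Tnf in 9, Atf3 in 8 and Fosb in 7. Jun was higher in 5 of 12, with a median ratio of 0.96. The share of all genes that were higher in the later library was not counted. The libraries differ in year, depth and animals, and these cannot be told apart. The entry CT010467.1 also took 19.7% of earlier and 6.25% of later T cell UMIs, which lowers the other earlier levels more. Without immunoglobulin, mitochondrial and CT010467.1 UMIs the 9-gene sum of all T cells was 13.6 and 23.5, earlier and later. With them it was 10.3 and 21.4.

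The genes whose level most resembled the 9-gene sum over 50 class by sample sums were Zfp36 (Pearson r 0.89), Prkcd (0.87), Ddi2 (0.82), Csf2ra (0.80), Kctd12 (0.79), Marcks (0.79), Nfkbiz (0.78) and Reep3 (0.77), among 2946 genes. For Tnf they were Twf2 (0.84), Ms4a6b (0.83), Ucp2 (0.83), Tnfrsf1a (0.82), Glud1 (0.82), Rbpj (0.82), Arf5 (0.81) and Fkbp1a (0.81). These values are a description: the sums of 1 sample share animals and library, and the classes differ widely from each other.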

How the data were processed

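Droplet 3' single-cell RNA and hash tags were sequenced from CD45+ mammary cells in 2 pooled libraries. The gene matrices hold the authors' deposited UMI counts, made with Cell Ranger 6.1.0 on mm10 per the submitters' processing notes, while the earlier matrix's header names Cell Ranger 4. Per the file headers nothing normalizes these counts. The deposited tag matrices hold counts per hash tag.

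Barcodes needed 500 UMIs, 300 genes and at most 10% mitochondrial UMIs. Tags with at least 100 counts were called with HTODemux (Seurat 5.3.0, positive quantile 0.99), and Scrublet doublet calls (7.83% and 6.87% of cells, expected rate 0.08) were removed. Gates were Cd3e, Ncr1 and Ms4a1 at 1 UMI, C1qa at 2 and Jchain at 10. UMIs were summed per class and hash-defined sample with at least 20 cells, giving 50 sums. The classes were compared, all 10 pairs in 1 fit, with edgeR 4.0.16 (glmQLFit and glmQLFTest, TMM, filterByExpr, sample block), with Benjamini-Hochberg adjustment over all genes and a threshold of 0.05. The SE is the absolute log2 difference divided by the square root of F. Lactation and Gestation were compared in 1 fit per class with the year as block. DESeq2 1.42.0 and other settings were alternatives. The code was tested on simulated data. Levels have exact Poisson intervals at 95%, and shares of cells are over all gated cells unless thinned. Both cover counting error only. Free RNA was estimated from casein UMIs, leaving out cells with 20 or more. Likeness between genes used log2 of the level plus 0.1.

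The members, lists and tests were chosen with earlier results of these data known. From the lists, up to 6 genes per comparison that passed were eligible to be named, by smallest p, besides all 10 members and the 8 genes most like them.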

Additional observations from a re-analysis of the deposited data

Results flagged for a closer look

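The Lactation over Gestation difference of the 9-gene sum went opposite ways in the libraries in T and B cells. In earlier T cells the sum was 12.9 UMIs per 10000 in Gestation and 7.69 in Lactation. Later T cells held 17.7 in Gestation and 21.3 in Lactation, so the log2 difference was 1.01 larger in the later library. Earlier B cells held 18.3 in Gestation and 12.7 in Lactation, and later B cells 24.3 and 42.9, a log2 difference 1.35 larger, with 46 and 28 Lactation B cells. With 1 sample per stage and library, the difference between the libraries was not tested. In NK and myeloid cells Lactation was lower in both.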

How the results depend on the processing

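Of the 137 alternative values of the member counts and of the sums by sample, 122 stayed within their limits and 15 moved. A count stayed when equal to the reported count or within a fixed ratio of it, whatever the direction of its calls. Stage counts of 0 that remained 0 are among those that stayed. For single members in the class comparisons, 419 alternative values kept their call and sign. Another 38 lost the call, 24 gained one and 8 turned sign. Members called in neither fit are not among these values, and some of them turned sign as well. In NK against T cells 3 did so with every gate gene at 1 or more UMIs. In the stage comparison without the earlier Lactation sample, 7 turned in NK, 6 in T, 4 in myeloid and 1 in B cells. The NK against T count of 2 members called became 0 in the earlier library alone, and 1 in the later library alone, with every gate gene at 1 or more UMIs, and with tags called by counts and ratio. The B against T count of 5 became 8 with no filter on low counts and with Scrublet calls kept. With every gate gene at 1 or more UMIs, plasma against T turned for Junb (0.43) and Nr4a1 (1.24), and plasma against B for Junb (0.080), Nr4a1 (0.14) and Tnf (1.67). Without TMM factors, an alternative chosen after seeing the data, plasma against T turned for Dusp1 (-0.80) and plasma against B for Jun (-0.10) and Dusp1 (-0.73), and the genes called among all went from 4078 to 8514 and from 4029 to 7884. The share of calls that were higher went from 51.9% to 39.5% for myeloid against T. Leaving out each stage sample in turn gave 0 to 1 members called in B cells and 0 to 0 in T, NK and myeloid cells. The 1 call was Junb at -1.55 without the later Lactation sample, where the year block was dropped. In sums by sample, calling tags by counts and ratio moved HT2 over Lactation in earlier B cells from 1.98 to 1.39 times, HT2 over Gestation in later T cells from 2.01 to 2.22, HT2 over Regression in later B cells from 3.43 to 2.63, and Regression over Balb/c in later myeloid cells from 1.44 to 1.35. With every gate gene at 1 or more UMIs, HT2 over Lactation in earlier myeloid cells was 1.68, HT2 over Gestation in later T cells 2.13 and Regression over Balb/c in later myeloid cells 1.51. With Scrublet calls kept, HT2 over Regression in later B cells was 2.82. The causes were not tested. Over all alternatives the genes called among all ranged from 498 to 2127 for NK against T (1878 in the reported fit), 2286 to 5218 for B against T (4546), 3609 to 8178 for myeloid against T (6596), 3229 to 7294 for myeloid against B (6364), and for the stages from 0 to 80 in T (4), 0 to 58 in NK (23), 0 to 71 in B (1) and 0 to 79 in myeloid cells (4). The stage comparison in B cells with tags called by counts and ratio, and that in plasma cells, could not be fitted for lack of cells. Low counts limit Tnf in plasma cells (3 and 1 UMIs) and Tnf and Atf3 in earlier B cells (11 and 15 UMIs).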

Other observations

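Cells that reached no gate also carried these genes. Their 9-gene sum was 23.5 UMIs per 10000 in the earlier library, with samples from 18.8 in Lactation to 31.3 in HT2. In the later library it was 49.2, with samples from 36.3 in Gestation to 56.4 in Balb/c. Cells that reached several gates held 14.0 and 27.6.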
